A study of Homo sapiens with 8 samples.

Results

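The genes described here are the relatives of the tumour suppressor p53 and a group of genes whose products act on p53, in a human colon carcinoma line before and after DNA damage. They are 9 of the 60669 genes counted. TP63 and TP73 encode the other transcription factors of the p53 family. MDM2, MDM4, PPM1D, RCHY1, COP1 and SIAH1 encode proteins reported to restrain p53 or to mark it for destruction, and TP53BP2 encodes ASPP2. Genes were chosen by name and found by matching the gene identifiers of the count tables to symbols, and all 9 were present. TP53BP2 does not belong under negative regulators by its known function, since ASPP2 binds p53 and promotes its activity on apoptotic targets.

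The study sequenced mRNA of HCT116 cells in 4 groups of 2 libraries each. The groups were wild-type (WT) cells without treatment, WT cells after 24 h in 0.5 µM doxorubicin, cells carrying the R350H substitution in DPF2 without treatment, and R350H cells after the same exposure. DPF2 belongs to the BAF complex, which remodels chromatin, and its R350H form was made by CRISPR/Cas9 editing of the HCT116 genome. Doxorubicin poisons topoisomerase II and breaks DNA. The labels leave unsaid how many edited clones there were and whether libraries of 1 group stem from separate cultures. The edit therefore cannot be told apart from other differences between the lines, and the p-values speak only to the spread among these 8 samples, which can be technical.

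In undamaged cells MDM2, a RING ubiquitin ligase, binds p53, blocks its activation domain and sends it to the proteasome, and its relative MDM4 (MDMX) binds p53 in the same way and works with MDM2 as a heterodimer. DNA damage releases p53, which then switches on its own inhibitors: MDM2 is a textbook p53 target, and so is PPM1D, which encodes the phosphatase WIP1 that removes damage-induced phosphates from p53 and from the kinases upstream of it. RCHY1 (PIRH2) and COP1 are further RING ubiquitin ligases of p53, SIAH1 is a RING ligase, homologous to Drosophila Sina, that is itself induced by p53 in several cell types, and the TP73 gene makes full-length p73 as well as shorter forms that antagonise p53.

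Library totals ran from 28111673 to 33727374 counts, and 17868 genes had enough counts to be tested, 8 of the 9 among them. DPF2 mRNA itself was lower in R350H than in WT cells, at 56.5 ± 3.0 against 93.7 ± 1.4 CPM (counts scaled to library size, ± SD, n = 2) without treatment, and counts per gene do not show the substitution. All 6 epithelial markers were expressed, with a summed level of 3250 to 5598 CPM over the 8 libraries. Of 6 colonic markers only CDX2 was above 1 CPM (12.2 to 19.3 CPM), while CDX1, VIL1, CDH17, LGR5 and GPA33 stayed under 0.744 CPM. The blood markers PTPRC, CD3E and CD14 were at or near 0, and CORO1A lay between 2.41 and 8.03 CPM.

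The promoters of the responding genes show letters that a reader can set beside the values that follow. RefSeq start sites on GRCh38.p14 gave 18 windows for the 9 genes, each from 250 bases before to 50 bases after a start. They were searched for the p53 response element, written as 2 abutting blocks with no spacer and 20 letters in all, which is its own reverse complement, so that 1 scan covers both strands. A match of at least 17 of 20 letters occurred in 5.2% of all 35116 promoter windows and of at least 18 letters in 0.649%. Among the 9 genes only MDM2 and TP73 had such matches, in 3 of the 18 windows, all at internal starts inside the gene. The MDM2 windows with a match overlapped and held the same elements. The best match in the windows of the other 7 genes had 13 to 16 letters. The palindromic cAMP response element TGACGTCA, present in 1.85% of windows, occurred in the PPM1D window and in no other window of the 9 genes. The stretches below end before the first annotated exon base of each window, and capitals mark the matches. They are shown because these 3 genes rose most with doxorubicin, and MDM2 and TP73 are the genes with a p53 match.
MDM2: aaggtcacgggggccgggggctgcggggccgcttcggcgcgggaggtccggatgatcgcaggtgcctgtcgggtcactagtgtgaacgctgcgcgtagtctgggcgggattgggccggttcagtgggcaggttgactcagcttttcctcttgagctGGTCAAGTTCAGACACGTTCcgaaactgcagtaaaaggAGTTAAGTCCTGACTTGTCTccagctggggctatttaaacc
TP73: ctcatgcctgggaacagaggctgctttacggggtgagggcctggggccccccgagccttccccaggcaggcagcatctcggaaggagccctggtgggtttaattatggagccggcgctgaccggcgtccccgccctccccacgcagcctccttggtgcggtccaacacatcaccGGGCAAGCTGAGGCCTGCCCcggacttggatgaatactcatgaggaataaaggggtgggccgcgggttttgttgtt
PPM1D: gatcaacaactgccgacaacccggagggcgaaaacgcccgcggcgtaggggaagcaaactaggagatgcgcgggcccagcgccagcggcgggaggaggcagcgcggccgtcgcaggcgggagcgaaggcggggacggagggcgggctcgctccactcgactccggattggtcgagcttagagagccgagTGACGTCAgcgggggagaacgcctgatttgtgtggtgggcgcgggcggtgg
The MDM2 stretch is chr12:68808767-68809001 on the plus strand, within the gene at 68808177 to 68850686 and outside its annotated exons. Its element at 68808923 to 68808942 matched 18 letters and began 94 bases before the start at 68809017. A further one at 68808961 to 68808980 matched 17 letters and began 56 bases before that start, with 18 bases between the elements. The TP73 stretch is chr1:3690422-3690671 on the plus strand, within the gene at 3652516 to 3736201, and its element at 3690596 to 3690615 matched 18 letters, beginning 76 bases before the internal start at 3690672. That internal start belongs to the shorter p73 forms that lack the activation domain. The PPM1D stretch is chr17:60599943-60600182 on the plus strand, just upstream of the gene at 60600183 to 60666280, and its TGACGTCA lay 61 bases before the start at 60600193. A match describes letters in the reference genome and is not a measured binding site, and the counts do not separate transcripts of different starts.

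Levels can be compared between genes only per length, so CPM were divided by the length of all annotated exons in kb. In untreated WT cells MDM2 stood highest at 19.2 ± 1.3 CPM per kb, followed by MDM4 at 16.1 ± 0.8 and PPM1D at 12.1 ± 0.1 (± SD, n = 2). TP53BP2 at 9.88, COP1 at 8.06, SIAH1 at 4.05, RCHY1 at 3.60 and TP73 at 2.29 CPM per kb came next, and TP63 was at the bottom. No neighbouring genes in this order overlapped between the WT libraries. After doxorubicin the WT order changed at both ends of the range. MDM2 reached 81.9 ± 1.4 CPM per kb, PPM1D (31.5) passed MDM4 (12.3), and TP73 (4.64) rose past SIAH1 (3.33) to a level whose libraries overlapped those of RCHY1 (4.63). In R350H cells PPM1D (15.2 CPM per kb) already stood above MDM4 (13.5) without treatment, and after doxorubicin SIAH1 was the lowest gene other than TP63, at 2.12 CPM per kb. The plot of members by library shows every value behind these orders.

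**Figure D1:**
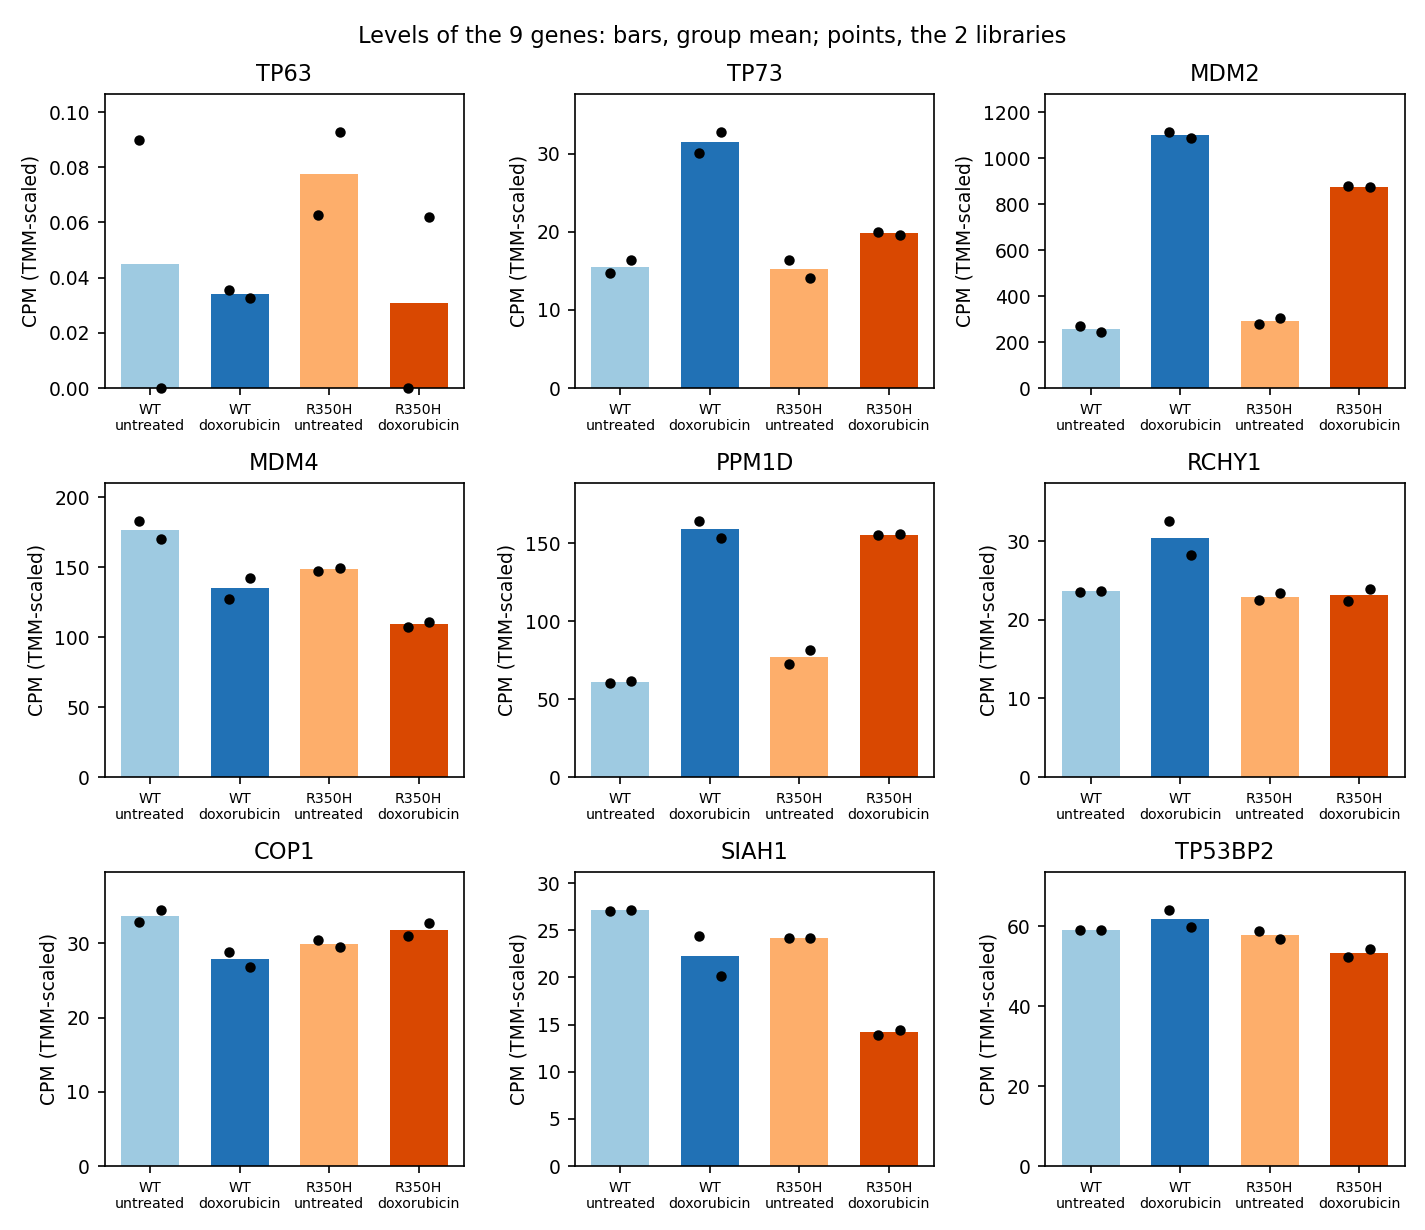
Level of each of the 9 genes, as CPM on TMM-scaled library sizes (vertical axis, with its own range in each panel) in the 4 groups (horizontal axis), where points are the 2 libraries of a group and bars their mean. MDM2 and PPM1D are high in all 4 treated libraries, TP73 is highest in the 2 treated WT libraries, SIAH1 is lowest in the 2 treated R350H libraries, and TP63 is at or near 0 throughout.

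TP63, which encodes p63, the family member that sustains squamous and other stratified epithelia, was not detectable above the counting floor in these cells. The gene (ENSG00000073282.13, chr3:189631389-189897276, plus strand) received 3 and 0 counts in the untreated WT libraries and 1 count in each treated WT library. It received 2 and 3 counts in untreated and 0 and 2 in treated R350H libraries. A count of 0 allows up to 3 counts, which is 0.0899 to 0.110 CPM in these libraries, so that no library exceeded the floor and no fold was computed. TP63 did not enter the test.

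TP73, which encodes p73, rose with doxorubicin in both genotypes and rose less in R350H cells. The gene (ENSG00000078900.15) was counted at 14.7 and 16.4 CPM in the untreated WT libraries and at 30.1 and 32.8 CPM in the treated ones. The R350H libraries held 16.4 and 14.1 CPM untreated and 19.98 and 19.6 CPM treated. Treated libraries were above untreated ones in each genotype with no overlap, and both treated R350H libraries were below both treated WT libraries. The rise was 2.03-fold in WT (log2 change 1.02 ± 0.10 SE, edgeR quasi-likelihood test with Benjamini-Hochberg adjustment, adjusted p = 9.71e-10) and 1.30-fold in R350H (0.38 ± 0.10, adjusted p = 0.00196). The difference between these responses was -0.64 ± 0.14 (edgeR adjusted p = 0.00151). Untreated R350H and WT cells overlapped in TP73 level (-0.03 ± 0.10, edgeR adjusted p = 0.868), whereas after doxorubicin R350H cells were lower by a log2 change of -0.67 ± 0.09 (edgeR adjusted p = 1.36e-06). The R350H rise missed the threshold without untreated R350H replicate 2 (0.27, edgeR adjusted p = 0.0734) and without both libraries that were counted at another strand setting, untreated WT replicate 1 and untreated R350H replicate 2 (0.27, edgeR adjusted p = 0.0504). The TP73 exons share 633 bases with the antisense gene TP73-AS1, which had 0 or 1 count per library in counting that used strand. In bulk RNA, fewer cells expressing a gene and less RNA per cell cannot be told apart, here and for the genes that follow.

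MDM2, the ubiquitin ligase that p53 itself induces, was the gene of the group with the largest response. It (ENSG00000135679.25) stood at 270.4 and 245.2 CPM in untreated and 1115 and 1088 CPM in treated WT libraries. R350H libraries were counted at 277.5 and 303.2 CPM untreated and at 878.6 and 874.2 CPM treated. Both R350H libraries were slightly above both WT libraries without treatment, by a difference that was not called. After doxorubicin both R350H libraries were below both WT libraries. The rise was 4.27-fold in WT and 3.02-fold in R350H cells, and the difference between the responses was -0.50 ± 0.10 on the log2 scale (edgeR adjusted p = 0.000649). After doxorubicin MDM2 was lower in R350H than in WT cells by a log2 change of -0.33 ± 0.07 (edgeR adjusted p = 0.000323). The untreated difference of 0.17 ± 0.07 missed the threshold (edgeR adjusted p = 0.056). It passed without untreated WT replicate 1 (0.24, edgeR adjusted p = 0.00895), without treated WT replicate 1 (0.17, edgeR adjusted p = 0.041), without treated WT replicate 2 (0.18, edgeR adjusted p = 0.0305), with no scaling factor (0.23, edgeR adjusted p = 0.0095), with RLE factors (DESeq2-type size factors in edgeR) and with DESeq2. It ranged from 0.10 to 0.24 over the 8 fits that each left out 1 library.

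MDM4, the partner of MDM2 that has no strong ligase activity of its own, moved the other way. The gene (ENSG00000198625.13, chr1:204516379-204558120, plus strand) gave 183.1 and 170.4 CPM in untreated WT libraries against 127.6 and 142.3 CPM in treated ones. It gave 147.6 and 149.5 CPM in untreated and 107.5 and 110.9 CPM in treated R350H libraries. Treated libraries were lower in both genotypes, and R350H libraries were lower than WT libraries in both conditions, without overlap. Doxorubicin lowered MDM4 by a log2 change of -0.39 ± 0.07 in WT (edgeR adjusted p = 2.05e-05) and -0.44 ± 0.07 in R350H cells (edgeR adjusted p = 3.14e-06), and the difference between those responses was -0.05 ± 0.09 (edgeR adjusted p = 0.768). The genotype difference was -0.25 ± 0.07 without treatment (edgeR adjusted p = 0.00344) and -0.31 ± 0.07 with doxorubicin (edgeR adjusted p = 0.000547). Without the 2 libraries of the other strand setting, the untreated difference was -0.21 and missed the threshold (edgeR adjusted p = 0.0939).

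With MDM2 rising and MDM4 falling, the ratio of their levels per kb shifted in every treated library. The ratio of MDM2 to MDM4 was 1.21 and 1.18 in untreated WT libraries and 7.15 and 6.26 in treated ones. In R350H libraries it was 1.54 and 1.66 untreated and 6.69 and 6.45 treated. The 2 untreated groups did not overlap, with the R350H libraries higher, while the treated R350H libraries lay between the 2 treated WT libraries. The mean ratio rose 5.62-fold in WT and 4.11-fold in R350H cells. These are ratios of mRNA levels, and protein was not measured in the libraries.

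**Figure D2:**
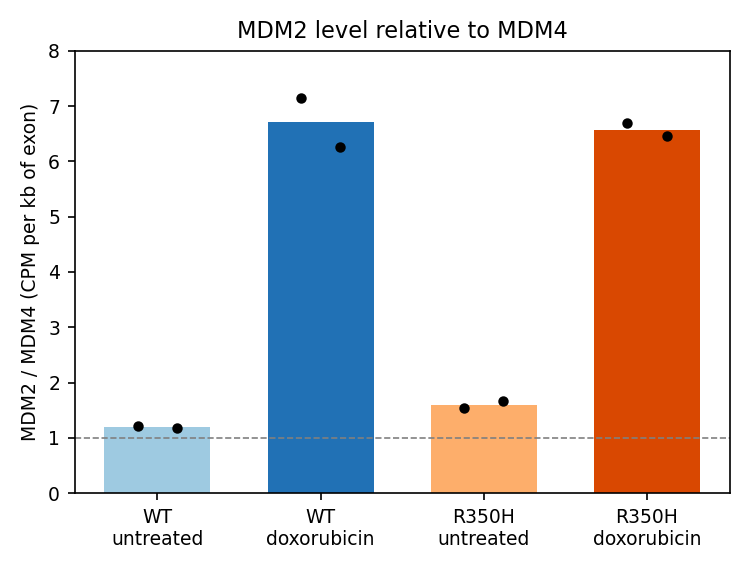
Ratio of MDM2 to MDM4 level (CPM per kb of exon) in each library, with the mean of each group. The untreated libraries lie between 1.18 and 1.66 and the treated ones between 6.26 and 7.15, and treated WT and R350H libraries overlap.

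PPM1D, which encodes the WIP1 phosphatase, rose with doxorubicin to the same range in both genotypes from different starting levels. The gene (ENSG00000170836.12) was at 60.5 and 61.5 CPM in untreated and 164.4 and 153.5 CPM in treated WT libraries. In R350H libraries it was at 72.3 and 81.4 CPM untreated and 155.2 and 156.1 CPM treated. Untreated R350H libraries were both above the untreated WT libraries, and the treated libraries of the genotypes overlapped. PPM1D increased 2.61-fold in WT (log2 change 1.38 ± 0.07, edgeR adjusted p = 2.38e-15) and 2.02-fold in R350H cells (1.02 ± 0.07, edgeR adjusted p = 8.06e-13). The untreated genotype difference was 0.33 ± 0.07 (edgeR adjusted p = 0.000352), the treated one -0.03 ± 0.07 (edgeR adjusted p = 0.748), and the difference between responses -0.36 ± 0.10 (edgeR adjusted p = 0.00971). That last call was lost without untreated R350H replicate 2 (-0.28, edgeR adjusted p = 0.113). Without the 2 libraries of the other strand setting it was also lost (-0.26, edgeR adjusted p = 0.123), as was the untreated genotype difference (0.23, edgeR adjusted p = 0.0538).

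The 3 other ubiquitin ligases showed small changes of different kinds. RCHY1 (ENSG00000163743.13, chr4:75479037-75514764, minus strand), the PIRH2 ligase, was at 23.6 and 23.7 CPM in untreated and 32.6 and 28.2 CPM in treated WT libraries. In R350H libraries it was at 22.5 and 23.4 CPM untreated and 22.4 and 23.95 CPM treated, so the treated WT libraries were the only high ones. It rose in WT cells by 0.36 ± 0.09 on the log2 scale (edgeR adjusted p = 0.00116), and the R350H change was 0.01 ± 0.09 (edgeR adjusted p = 0.909), a value whose sign differed between scalings. R350H cells with doxorubicin were lower than WT by -0.39 ± 0.09 (edgeR adjusted p = 0.000658). The difference between the responses, -0.35 ± 0.12, missed the threshold (edgeR adjusted p = 0.0592) and passed it without treated WT replicate 2 (-0.51, edgeR adjusted p = 0.00495) and with RLE factors in edgeR (adjusted p = 0.0344). RCHY1 shares 547 exon bases with THAP6 on the opposite strand, which had 958 to 1285 counts per library.

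COP1 (ENSG00000143207.21, chr1:175944831-176207286, minus strand), a RING ligase that also controls other transcription factors, was at 32.9 and 34.5 CPM in untreated and 28.9 and 26.9 CPM in treated WT libraries. It was at 30.4 and 29.5 CPM in untreated and 31.0 and 32.7 CPM in treated R350H libraries. The treated WT libraries were the lowest pair, and the untreated WT libraries lay above both untreated R350H libraries. COP1 fell in WT cells by a log2 change of -0.27 ± 0.08 (edgeR adjusted p = 0.00631), and the value in R350H cells was 0.09 ± 0.08 (edgeR adjusted p = 0.376). The WT fall missed the threshold without treated WT replicate 2 (-0.18, edgeR adjusted p = 0.111). The difference between responses was 0.36 ± 0.11 (edgeR adjusted p = 0.0294), the only positive one that passed among the 8 genes. It is weakly held: leaving out any 1 of 6 libraries ended the call, as did leaving out the 2 libraries of the other strand setting (edgeR adjusted p = 0.0869), RLE factors in edgeR (adjusted p = 0.0597) and DESeq2 (adjusted p = 0.0978). It passed without untreated or treated WT replicate 1, with no scaling factor, with no low-count filter and with the replicate block, and the values were 0.24 to 0.41 over the 8 omissions (edgeR adjusted p = 0.0219 to 0.292). The genotype difference with doxorubicin, 0.19 ± 0.08, missed the threshold (edgeR adjusted p = 0.0553) and passed it without untreated WT replicate 1 (edgeR adjusted p = 0.0382), untreated WT replicate 2 (edgeR adjusted p = 0.0384) or treated WT replicate 1 (0.25, edgeR adjusted p = 0.0427), and with no scaling factor (0.31, edgeR adjusted p = 0.00262).

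SIAH1 (ENSG00000196470.12, chr16:48356364-48448402, minus strand) fell with doxorubicin, although it is listed among genes that p53 induces. Its level was 27.1 and 27.2 CPM in untreated and 24.4 and 20.2 CPM in treated WT libraries. In R350H libraries the level was 24.2 CPM in each untreated library, and 13.9 and 14.4 CPM in the treated ones. The treated R350H libraries stood apart as the lowest of all 8. The fall was 1.71-fold in R350H cells (log2 change -0.77 ± 0.09, edgeR adjusted p = 1.3e-07) and 1.22-fold in WT cells (-0.29 ± 0.09, edgeR adjusted p = 0.0116). The WT fall missed the threshold without treated WT replicate 2 (-0.12, edgeR adjusted p = 0.337), with DESeq2 (adjusted p = 0.0511) and without the 2 libraries of the other strand setting (-0.29, edgeR adjusted p = 0.0621). The difference between responses was -0.48 ± 0.13 (edgeR adjusted p = 0.0125) and missed the threshold without treated WT replicate 1 (edgeR adjusted p = 0.0802), untreated R350H replicate 1 (edgeR adjusted p = 0.0531), untreated R350H replicate 2 (edgeR adjusted p = 0.0517) or the 2 libraries of the other strand setting (edgeR adjusted p = 0.0868). After doxorubicin SIAH1 was 1.57-fold lower in R350H than in WT cells (-0.65 ± 0.10, edgeR adjusted p = 3.71e-06), a call kept in all 8 omissions. Of its exon bases, 1793 (26.8%) are shared with LONP2 on the opposite strand, which had 3284 to 5309 counts per library.

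TP53BP2 (ENSG00000143514.17, chr1:223779893-223845954, minus strand), the ASPP2 gene, was nearly level across the groups. It lay at 59.0 and 59.2 CPM in untreated and 64.1 and 59.8 CPM in treated WT libraries. The R350H libraries lay at 58.97 and 56.8 CPM untreated and at 52.2 and 54.4 CPM treated. Neither doxorubicin response passed the test, with log2 changes of 0.07 ± 0.07 in WT (edgeR adjusted p = 0.429) and -0.12 ± 0.07 in R350H cells (edgeR adjusted p = 0.157). The R350H response passed with only the 4 libraries compared (-0.15, edgeR adjusted p = 0.0162). Treated R350H libraries were lower than treated WT libraries by a log2 change of -0.22 ± 0.07 (edgeR adjusted p = 0.0122). That call was lost without treated WT replicate 1 (-0.17, edgeR adjusted p = 0.0985), without treated R350H replicate 1 (-0.23, edgeR adjusted p = 0.077) and with no scaling factor (-0.10, edgeR adjusted p = 0.207). The difference between responses was -0.19 ± 0.10 (edgeR adjusted p = 0.212) and passed the test without treated WT replicate 2 (-0.30, edgeR adjusted p = 0.0357).

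Counted over the group, 8 genes could be tested in each comparison. With doxorubicin in WT cells 4 rose (TP73, MDM2, PPM1D, RCHY1) and 3 fell (MDM4, COP1, SIAH1), where 47.7% of all genes tested were called, 24.1% higher and 23.6% lower. In R350H cells 3 rose and 2 fell, against 47.9% of all genes tested called, 26.1% higher and 21.8% lower. Between untreated genotypes PPM1D was higher and MDM4 lower in R350H cells, against 36.8% of all genes tested called, 17.3% higher and 19.5% lower, so the share of the 8 genes was not above that background. After doxorubicin 6 of the 8 were lower in R350H cells (TP73, MDM2, MDM4, RCHY1, SIAH1, TP53BP2) and 0 were higher (edgeR; 1 at an unadjusted p under 0.05 and 0 with DESeq2), where 40.1% of all genes tested were called, 21.0% lower and 19.1% higher. The median over the 8 genes was -0.32 on the log2 scale, beside 0.02 over all genes tested. The response differed between genotypes for 5 of the 8, more negative in R350H for TP73, MDM2, PPM1D and SIAH1 and more positive for COP1, beside 14.6% of all genes tested called, 8.18% more negative and 6.46% more positive. The count of 5 fell to 3 without untreated R350H replicate 1 and to 2 without untreated R350H replicate 2. Each response to doxorubicin shares libraries with the genotype comparisons and with the difference between responses, so those counts are not independent of each other.

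**Figure D3:**
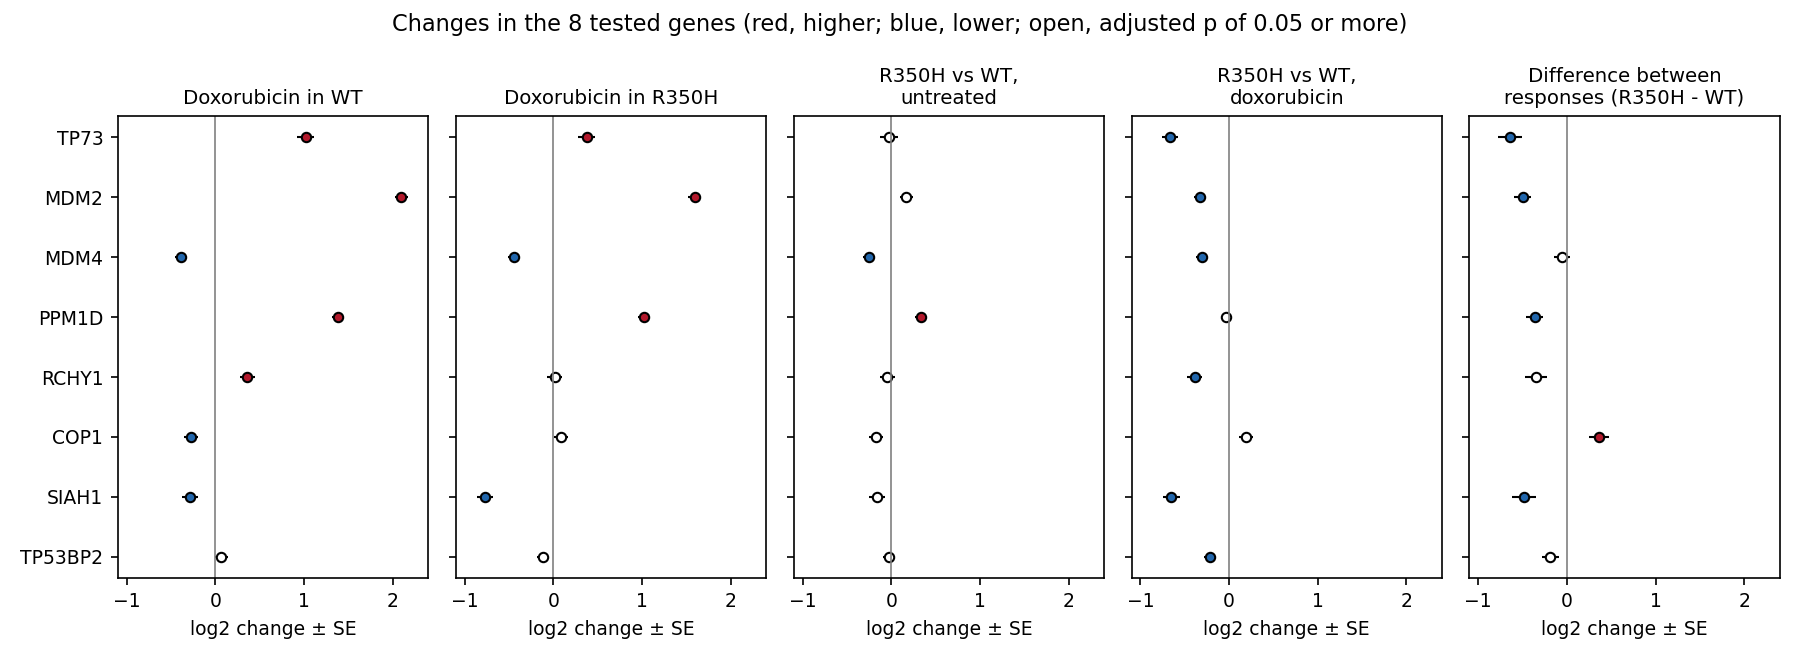
Log2 changes (horizontal axis, with bars of 1 SE of the edgeR fit) of the 8 tested genes in 4 comparisons of groups and in the difference between responses, with calls filled (red higher, blue lower) and the rest open. MDM2, PPM1D and TP73 lie right of 0 with doxorubicin in both genotypes and left of 0 in the difference between responses, while MDM4 lies left of 0 in all 4 comparisons of groups.

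Other genes of the same pathway, taken from lists chosen with earlier results of these data known, give the surroundings of these changes. Among 25 further ubiquitin ligases and deubiquitinases reported to act on p53 or MDM2, 12 rose and 4 fell with doxorubicin in WT cells, where 24.1% of all genes tested rose and 23.6% fell. In R350H cells 15 rose and 4 fell, beside 26.1% and 21.8% of all genes tested. The medians were 0.18 and 0.19 on the log2 scale, beside -0.03 and 0.03 over all genes tested. DDB1, an adaptor of CUL4 ligases, rose by 0.46 ± 0.06 in WT and 0.53 ± 0.06 in R350H cells. WWP1, a HECT ligase, rose by 0.41 ± 0.07 and 0.43 ± 0.07. UBE4B, an E3 and E4 ubiquitin ligase that works with MDM2, passed the test in opposite directions, with -0.33 ± 0.07 in WT and 0.21 ± 0.06 in R350H cells and a difference between responses of 0.54 ± 0.09 (edgeR adjusted p = 0.000119). The deubiquitinase USP5 did likewise but nearer the threshold. It changed by -0.18 ± 0.06 in WT and 0.16 ± 0.06 in R350H cells (edgeR adjusted p = 0.0249 and 0.0423). The difference was 0.34 ± 0.09 (edgeR adjusted p = 0.0119). The R350H counts were 7 higher and 3 lower without untreated R350H replicate 2 or treated R350H replicate 1, and 7 higher and 2 lower without treated R350H replicate 2. The 4 that fell in WT cells were 2 without untreated WT replicate 2 or either treated R350H library, with DESeq2 and with only the 4 libraries compared.

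Among 24 kinases and other enzymes that modify p53 after damage, 3 rose and 11 fell in WT cells, beside 24.1% and 23.6% of all genes tested. The 11 that fell were 9 with DESeq2 and with only the 4 libraries compared. Fewer than 11 fell when any 1 of the treated libraries was left out. In R350H cells 5 rose and 8 fell, beside 26.1% and 21.8%. The 5 that rose were 3 with DESeq2 or without either untreated R350H library, and 2 without either treated R350H library. AURKA, the mitotic kinase Aurora A, showed the largest falls in the list in both genotypes, with log2 changes of -1.99 ± 0.08 in WT and -1.38 ± 0.07 in R350H cells. KMT5A, the H4K20 methyltransferase SET8, fell by 0.54 in WT and by 1.17 in R350H cells, and that difference passed the test (-0.63 ± 0.09, edgeR adjusted p = 2.19e-05). CHEK1, the replication checkpoint kinase, was lower in R350H cells by a log2 change of -1.15 ± 0.08 without and -1.31 ± 0.09 with doxorubicin, and the methyltransferase SMYD2 was higher, at 0.80 ± 0.09 and 0.73 ± 0.09. ATM, the kinase that signals double-strand breaks, changed by -0.40 ± 0.07 in WT and by -0.06 ± 0.07 in R350H cells (edgeR adjusted p = 3.5e-05 and 0.472), and the difference was 0.33 ± 0.10 (edgeR adjusted p = 0.0221).

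Among 18 binding partners of MDM2 or p53, 6 rose and 7 fell with doxorubicin in WT cells, beside 24.1% and 23.6% of all genes tested. The R350H counts were 6 and 6, beside 26.1% and 21.8% of all genes tested. Fewer of the R350H falls passed the test without untreated R350H replicate 2. In R350H cells 3 were higher and 9 lower than in WT cells without treatment (17.3% and 19.5% of all genes tested), and 3 were higher and 10 lower with doxorubicin (19.1% and 21.0%). The medians of these genotype comparisons were -0.24 and -0.28 beside -0.01 and 0.02 over all genes tested. The ribosomal protein genes RPL5 and RPL11, whose free products bind MDM2, were lower in R350H cells in both conditions. RPL5 differed by -0.60 ± 0.07 untreated and -0.47 ± 0.07 with doxorubicin, and RPL11 by -0.49 ± 0.07 and -0.48 ± 0.07. MTBP, an MDM2-binding protein with a role in replication origin firing, differed by -0.57 ± 0.10 and -0.71 ± 0.10. TP53BP1, the 53BP1 repair factor, was higher in R350H cells, by 0.33 ± 0.07 untreated and 0.57 ± 0.07 with doxorubicin. PPP1R13L, which encodes iASPP, the inhibitory relative of ASPP2, was lower, with -0.54 ± 0.07 and -0.38 ± 0.07. CDKN2A, counted over all its transcripts together, fell with doxorubicin in both genotypes (-1.46 ± 0.09 in WT and -1.17 ± 0.09 in R350H cells). PML, a nuclear body gene, rose (0.67 ± 0.07 and 0.73 ± 0.07). In the difference between responses 0 of the 18 passed the edgeR test, beside 14.6% of all genes tested. At an unadjusted edgeR p under 0.05 there were 3 (2 positive and 1 negative), and 1 passed with DESeq2.

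Most of the p53 target genes rose with doxorubicin, as MDM2 did. Most were not called lower, as MDM2 was, in treated R350H against treated WT cells. Of 32 tested targets, 29 rose and 0 fell with doxorubicin in WT cells (median 1.31), where 24.1% of all genes tested rose and 23.6% fell (median -0.03). In R350H cells 26 rose and 6 fell (median 0.89), beside 26.1% and 21.8% of all genes tested (median 0.03). The 6 that fell were 5 with no scaling factor, with no low-count filter and with the replicate block. Fewer than 6 fell when any 1 of the R350H libraries was left out. With doxorubicin 12 were lower and 6 higher in R350H than in WT cells (median -0.09), beside 21.0% and 19.1% of all genes tested (median 0.02). That count of 6 higher is weakly held: with no scaling factor 9 were higher and 10 lower. Fewer than 6 were higher when treated R350H replicate 1, treated R350H replicate 2 or treated WT replicate 2 was left out. In untreated R350H cells 22 were higher and 2 lower than in WT cells (median 0.33), beside 17.3% and 19.5% of all genes tested (median -0.01). In the difference between responses 20 were lower and 0 higher (median -0.38), beside 8.18% and 6.46% of all genes tested (median 0.03). The untreated R350H libraries enter both of these last comparisons, as they do for PPM1D. At an unadjusted edgeR p under 0.05, and with DESeq2, the counts of 0 in these sentences were 0 as well. The count of 20 lower in the difference was 16 with no scaling factor. Fewer than 22 and fewer than 20 passed without untreated R350H replicate 2, and without both libraries of the other strand setting. BTG2, an antiproliferative p53 target, rose by 1.82 ± 0.07 in WT and 1.16 ± 0.07 in R350H cells, and FDXR, a mitochondrial reductase, by 1.65 ± 0.07 and 1.34 ± 0.07. PMAIP1, which encodes the BH3-only protein NOXA, rose by 0.91 ± 0.06 in WT cells and fell by 0.16 in R350H cells (edgeR adjusted p = 0.0483). The plot of responses in WT against R350H cells sets these lists beside the 8 tested genes.

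**Figure D4:**
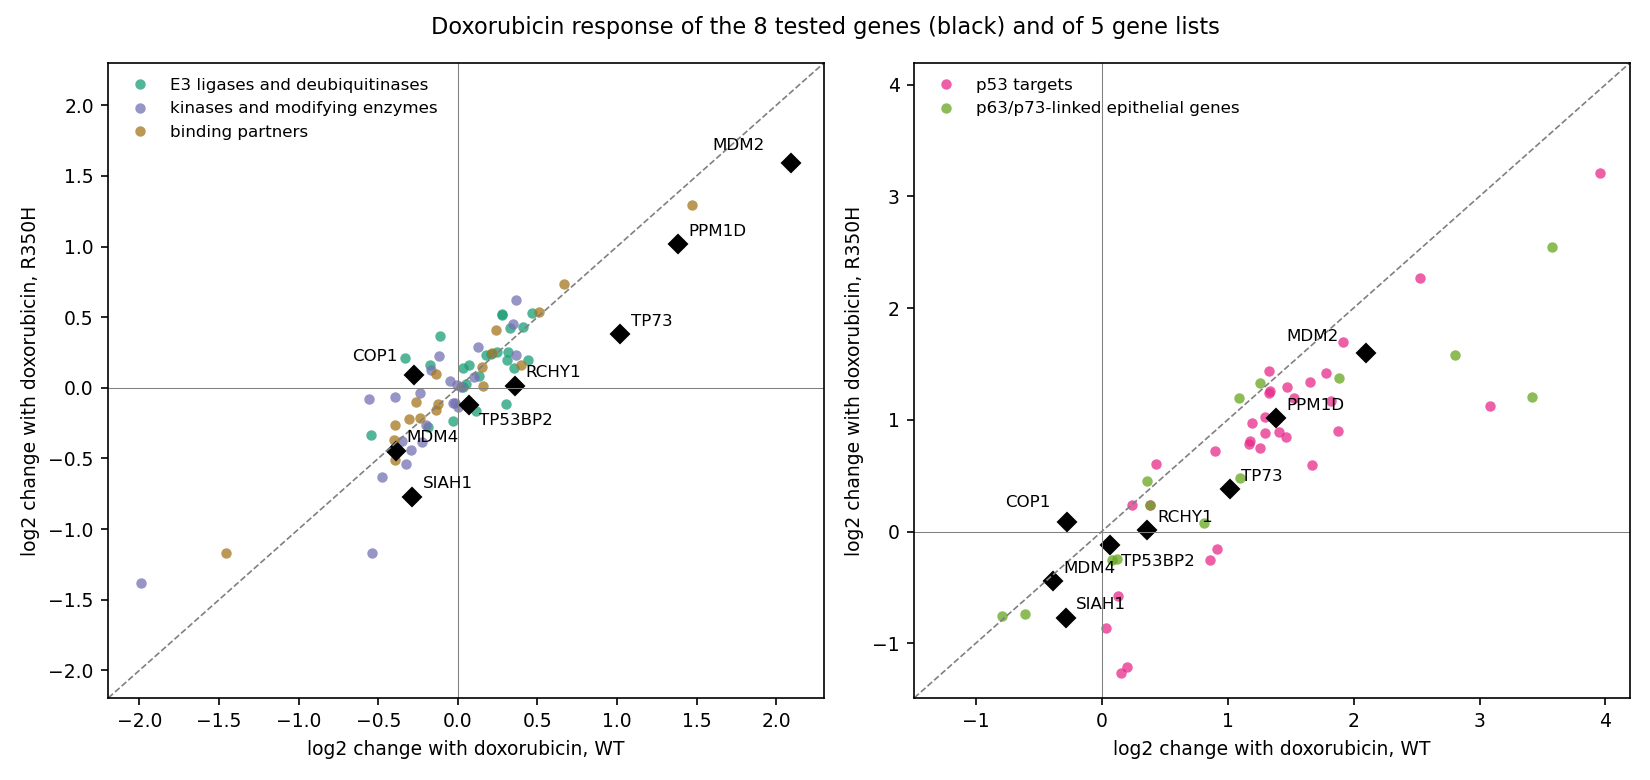
Log2 change with doxorubicin in WT cells (horizontal axis) against that in R350H cells (vertical axis), with 1 coloured point per gene of 3 lists on the left and 2 lists on the right, the 8 tested genes as black diamonds and the dashed line marking equal change. MDM2, PPM1D and TP73 lie below the dashed line at positive values among the p53 targets on the right, and COP1 lies above it.

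For the 3 genes whose group means spanned at least 1 on the log2 scale, the genes with the most similar pattern over the 8 libraries were taken from 11266 candidates with a mean of at least 5 CPM. Pearson's r of log2 CPM is given as a description, since the libraries fall into treated and untreated sets and share depth and scaling. For MDM2, which spanned 2.10, they were PRODH (r = 0.999), METTL8 (0.998), EHF (0.997), VAV2 (0.996) and CD46 (0.996). PRODH, a proline dehydrogenase gene, rose by 3.32 ± 0.14 in WT and 2.47 ± 0.14 in R350H cells. For PPM1D, which spanned 1.38, they were SERPINB5 (0.998), ANKRD33B (0.997), CHST14 (0.997), GALNT18 (0.997) and SUSD6 (0.996). SERPINB5, which encodes maspin, rose by 2.79 ± 0.08 and 1.91 ± 0.07. For TP73, which spanned 1.05, they were USP11 (0.999), LIG1 (0.992), SLC37A2 (0.991), CPSF4 (0.989) and S100A2 (0.988). USP11, a deubiquitinase, moved far less than TP73, by 0.39 ± 0.06 in WT and 0.15 ± 0.06 in R350H cells, which shows that r compares the shape of a pattern and not its size.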

How the data were processed

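Libraries of HCT116 mRNA came from a stranded TruSeq kit (per the labels' protocols). The authors deposited whole-number counts per gene for each of the 8 libraries. Per the file headers, featureCounts 2.0.1 counted fragments on exons (GENCODE release 34), required a mapping quality of at least 10, and used strand setting 1 in untreated WT replicate 1 and untreated R350H replicate 2 and setting 2 in the other 6 libraries. Per the submitters' processing notes, reads were checked with FastQC 0.11.4, trimmed with Trim Galore 0.6.10, aligned with STAR 2.7.5a to hg38 and counted with featureCounts 1.5.0-p1, a version other than that in the headers, and DESeq2 1.36.0 was used. The deposited TPM table of 202 genes held 0 of the 9 genes and was not used here.

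Of 60669 genes, filterByExpr kept 17868 with 99.9% of counts. The test was edgeR's quasi-likelihood test (edgeR 4.0.16, R 4.3.3) with robust fitting, TMM scaling and 1 mean for each of the 4 groups, which leaves 4 residual degrees of freedom. It was two-sided, with Benjamini-Hochberg adjustment over the genes tested and calls at an adjusted p below 0.05. The coefficient of biological variation came to 5.35%, and the procedure was tested on simulated data. Log2 changes carry the SE of the fit and levels the SD over 2 libraries. Libraries of a group had a log2 CPM correlation of 0.992 to 0.995 and differed by more than sampling noise (chi-square per gene 1.96 to 8.15), so none was counted as a copy. The floor for a count of 0 was 3 counts, which covers counting error only.

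Alternatives were DESeq2 1.42.0, other scalings, no low-count filter, a replicate block, only the 4 libraries compared, and leaving out libraries. The 9 genes and the lists were chosen with earlier results of these data known. The text names all 9 genes, from each list up to 4 genes with the smallest adjusted p in each comparison and genes called in opposite directions in the 2 genotypes, and for likeness the 5 genes with the highest correlation. Some genes that qualified are left unnamed, and results of some genes are not reported here. Promoter windows were taken from RefSeq. Figures were drawn with matplotlib 3.10.9.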

Additional observations from a re-analysis of the deposited data

Results flagged for a closer look

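For 5 of the 8 tested genes the doxorubicin response of R350H cells differed from that of WT cells, beside 14.6% of all genes tested. This was by a test of the difference itself (edgeR, adjusted p under 0.05). The difference, R350H response minus WT response on the log2 scale, was -0.64 for TP73, -0.50 for MDM2, -0.36 for PPM1D, -0.48 for SIAH1 and 0.36 for COP1. Of 14 alternatives, the call was kept in 14 for TP73 and MDM2, 12 for PPM1D, 10 for SIAH1 and 5 for COP1. For TP73, MDM2 and PPM1D both genotypes rose and WT cells rose more, for SIAH1 both fell and R350H cells fell more, and for COP1 WT cells fell while the change in R350H cells did not pass the test. Groups of 2 libraries were too small for a check of single libraries that stand apart.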

How the results depend on the processing

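Of 592 values of single genes under alternatives, 538 kept direction and side of the threshold, 26 missed the threshold, 14 passed it and 14 changed sign, all of the last among values that had not passed. For RCHY1 with doxorubicin in R350H cells the value was -0.00926 with RLE factors (DESeq2-type size factors in edgeR), -0.00922 with DESeq2, -0.0133 with only the 4 libraries compared, and -0.0661 to 0.0412 with 1 library left out. With no scaling factor, which moved the median of all genes by 0.11 in R350H against WT with doxorubicin, the untreated genotype difference was 0.0299 for TP73, 0.0124 for RCHY1 and 0.0260 for TP53BP2, the treated one was 0.0831 for PPM1D, and the difference between responses was 0.00219 for MDM4. With 1 library left out, the untreated difference of TP73 ran from -0.139 to 0.0784 and the treated difference of PPM1D from -0.135 to 0.0197. Leaving out both libraries of strand setting 1 left a single library in each untreated group. The calls among the 8 genes between untreated genotypes were then lost, and fewer of the 8 differed in response. Calls over all genes tested also fell in both comparisons in that fit. Leaving out 1 library gave 2 to 6 genes that differed in response. The causes were not tested. The replicate numbers did not pair the libraries (correlations of deviations from -0.08 to 0.04), and the fit with a replicate block gave 7, 5, 2, 6 and 5 calls, as without it. With 2 libraries a group, a fit without 1 library assumes that the lone library varies like the other groups. Of 318 calls in the lists, 6 to 48 were lost by setting and 0 changed sign.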

Other observations

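Genes linked to p63 and p73 in epithelia, from a list chosen with earlier results of these data known, moved with doxorubicin in cells where TP63 stayed at 0 to 3 counts per library. Of 14 tested, 10 rose and 2 fell in WT cells, beside 24.1% and 23.6% of all genes tested. In R350H cells 8 rose and 4 fell, beside 26.1% and 21.8% of all genes tested. PERP belongs both to this list and to the p53 targets above. SFN, which encodes 14-3-3 sigma and is also a p53 target, rose by 1.88 ± 0.08 on the log2 scale in WT and 1.37 ± 0.08 in R350H cells. COL17A1, the collagen of hemidesmosomes, rose by 2.81 ± 0.17 in WT and 1.58 ± 0.16 in R350H cells from 1.8 ± 0.1 CPM in untreated WT cells, and the difference was -1.22 ± 0.24 (edgeR adjusted p = 0.00071). FGFR3, a fibroblast growth factor receptor, was higher in untreated R350H cells by 0.93 ± 0.08. The Notch ligand gene JAG1 rose in WT cells by 0.81 ± 0.07 and changed by 0.08 ± 0.07 in R350H cells (difference -0.73 ± 0.10, edgeR adjusted p = 3.82e-06). LAMB3, a laminin chain, fell by 0.61 in WT and by 0.74 in R350H cells, and the difference of -0.13 ± 0.10 did not pass the test (edgeR adjusted p = 0.408).

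The summed level of 5 basal squamous markers was 7.47 to 7.52 CPM in untreated WT libraries and 39.4 to 41.7 CPM in treated ones, and 6.06 to 8.73 and 15.4 to 16.3 CPM in R350H libraries. That sum came mostly from S100A2 (3.84 to 28.4 CPM) and COL17A1 (1.72 to 12.9 CPM), while the defining keratins KRT5 and KRT14 stayed under 0.177 and 0.124 CPM. Their part in the changes of TP73 was not tested.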
